A study of Mus musculus with 2 samples.

Results

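The complement components and receptor described here are 9 genes of the 27998 listed in both count tables, chosen by their symbols: the C1q subunits C1qa, C1qb and C1qc, the components C3, C4b, Cfb, Cfp and Hc, and the receptor C3ar1. They were measured in whole-lung cells of male C57Bl/6J mice aged 3 months, in 2 single-cell RNA libraries that the labels call control and fibrosis, each from 1 mouse. The labels give every mouse 100 µg of TiO2 (titanium dioxide) or of crocidolite asbestos through the trachea, 14 days before the lungs were taken, and they do not tie a particle to a library. Inhaled crocidolite fibres cause lung scarring, for which titanium dioxide often serves as the control particle. With 1 mouse in each group no difference has a replicate check, no test or p-value is given, and every interval covers counting error only.

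Complement is a cascade of proteins that tags microbes, dying cells and debris. In the classical pathway C1q binds the target and its proteases cut C4 and C2. In the alternative pathway factor B and properdin build and hold the enzyme that cuts C3. Both pathways then lead to C5 and the membrane attack complex. Much of the plasma supply of these proteins comes from the liver, whereas C1q is known as a product of tissue macrophages.

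Each cell was placed in a class by the marker genes it held, none of which is a complement gene of the lists used here, and classes are called "-like" because the names rest on transcripts. Of 7510 kept control cells 6433 (85.7%) were placed, and of 6559 kept fibrosis cells 5555 (84.7%) were placed. The deposited tables held 36632591 and 38090308 UMIs (unique molecular identifiers, 1 for each captured transcript end), with medians of 3783.5 and 4292 UMIs per cell. Cells at the marker minimum made up 14.8% of placed control cells and 15.9% of placed fibrosis cells, and 89 cell barcodes occurred in both libraries. The class makeup also differed, with 143 and 276 interstitial macrophage-like cells, 973 and 1612 AT2-like cells (the surfactant-making alveolar epithelium) and 1129 and 384 classical monocyte-like cells in the control and fibrosis library. A level is given as CPM, the UMIs of a gene divided by all UMIs of its class in 1 library and scaled to counts per 1000000, with an exact Poisson 95% interval. CPM of different genes are set side by side only with the limit that a 3′ assay captures transcripts of different genes with different success.

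The 3 C1q genes are neighbours on mouse chromosome 4. On GRCm38 in GENCODE M21 they are protein-coding genes of 3 exons each on the minus strand, with C1qb at chr4:136880129-136886187, C1qc at chr4:136889804-136893065 and C1qa at chr4:136895917-136898803, all within 18675 bases. C3ar1 lies at chr6:122847138-122856161, also on the minus strand. Of the 9 members, 6 had an upstream window of 250 bases in the RefSeq table (GRCm38.p6), and the windows of C1qb, C1qc and C3ar1 are shown because these genes had their highest level in the same class. Each is written 5′ to 3′ on the gene's strand and ends at the base before the RefSeq start, from which distances are counted. RefSeq and GENCODE place the starts differently. The C1qc window therefore lies partly inside the GENCODE gene, whose 5′ end is at chr4:136893065. The C3ar1 window also overlaps the first bases of its GENCODE gene. The windows are chr4:136886201-136886450 for C1qb, chr4:136892915-136893164 for C1qc and chr6:122856158-122856407 for C3ar1.
C1qb: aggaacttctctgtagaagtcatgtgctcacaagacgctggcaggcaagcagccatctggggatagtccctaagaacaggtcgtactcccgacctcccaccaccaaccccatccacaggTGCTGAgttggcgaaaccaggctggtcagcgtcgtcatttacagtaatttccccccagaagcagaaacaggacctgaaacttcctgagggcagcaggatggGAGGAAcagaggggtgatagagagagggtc
C1qc: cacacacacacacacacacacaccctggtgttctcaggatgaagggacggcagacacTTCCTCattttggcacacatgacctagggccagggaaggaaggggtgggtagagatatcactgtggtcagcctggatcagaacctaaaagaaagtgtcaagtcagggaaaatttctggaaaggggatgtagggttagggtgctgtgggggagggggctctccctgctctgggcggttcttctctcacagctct
C3ar1: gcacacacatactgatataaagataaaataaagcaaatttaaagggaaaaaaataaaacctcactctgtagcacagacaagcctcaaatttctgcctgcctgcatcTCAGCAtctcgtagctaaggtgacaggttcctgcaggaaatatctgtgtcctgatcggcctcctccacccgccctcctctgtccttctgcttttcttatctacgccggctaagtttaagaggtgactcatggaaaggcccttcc
Capitals mark 2 motifs searched on both strands. The first was GAGGAA, the core bound by the myeloid factor PU.1, which reads TTCCTC when it lies on the other strand. The second was TGCTGA, an arm of the element bound by Maf factors, which then reads TCAGCA. C1qb held GAGGAA 30 bases and TGCTGA 131 bases before the RefSeq start, without overlap. C1qc held TTCCTC 193 bases before its start and no TGCTGA, and C3ar1 held TCAGCA 144 bases before its start and no GAGGAA. Of the windows not shown, that of C3 held TCAGCA 182 bases before its start and no GAGGAA. Those of Cfp and Hc held neither motif. Such matches are common, since 23.3% of 32851 promoter windows held GAGGAA and 16.1% held TGCTGA on either strand, and a match is a description of letters only.

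C1q was by far highest in interstitial macrophage-like cells, the macrophages of the lung tissue between the airspaces. C1qa measured 6548 CPM there in control cells (6331 to 6771, 3434 UMIs) and 4704 CPM in fibrosis cells (4578 to 4833, 5269 UMIs). C1qb measured 5261 CPM (5066 to 5461) and 3961 CPM (3845 to 4079), and C1qc measured 4582 CPM (4401 to 4769) and 3399 CPM (3292 to 3509). The next class in the control library was type 2 dendritic cell-like, with 188 CPM of C1qa, 293 CPM of C1qb and 128 CPM of C1qc. The interstitial macrophage-like class held 77.2% of all C1qa UMIs of the control library and 70.3% of those of the fibrosis library. The same shares were 69.8% and 64.8% for C1qb, and 75.1% and 70.8% for C1qc.

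**Figure D1:**
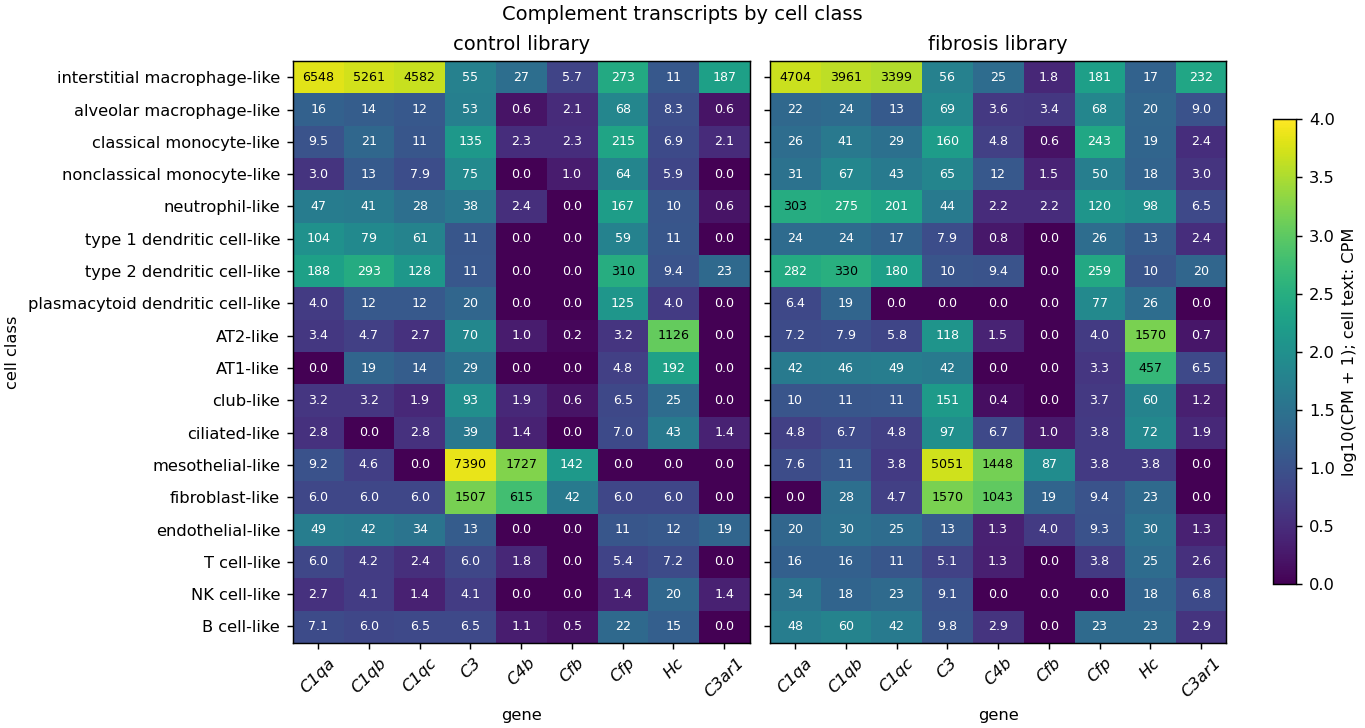
Level of each complement gene (columns, CPM printed in each cell, colour on a log10(CPM + 1) scale) in 18 cell classes (rows) of the control library (left) and the fibrosis library (right). C1q is brightest in interstitial macrophage-like cells, C3 and C4b in mesothelial-like and fibroblast-like cells, and Hc in AT2-like cells; values of classes with few cells rest on few UMIs.

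**Figure D2:**
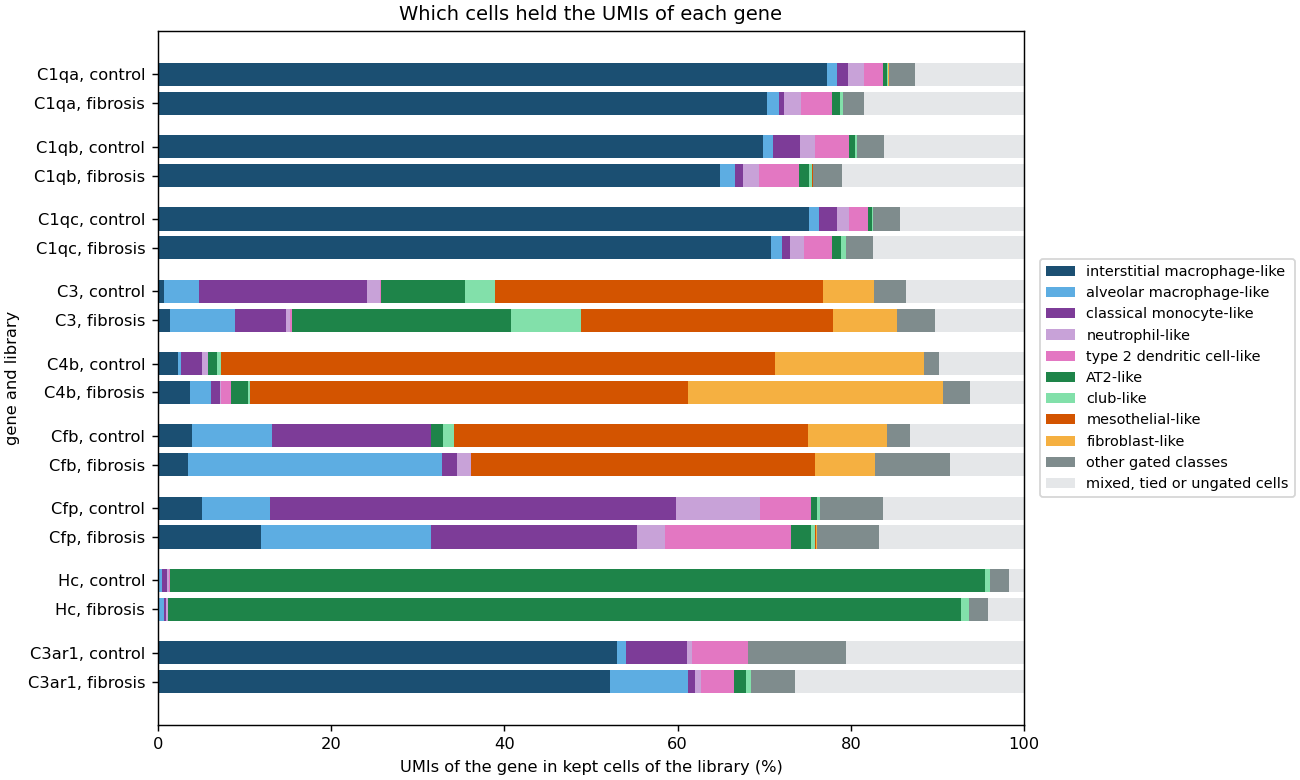
Share of each gene's UMIs (percent, horizontal axis) held by each cell class, 1 bar for each gene and library. Interstitial macrophage-like cells held 77.2% and 70.3% of C1qa, AT2-like cells held 94.2% and 91.5% of Hc, and the C3 and Cfp bars are divided among several classes.

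All 3 C1q levels in the interstitial macrophage-like class were lower in the fibrosis library, by less than 2-fold. The log2 ratio of fibrosis to control was -0.48 for C1qa (-0.54 to -0.41), -0.41 for C1qb (-0.48 to -0.34) and -0.43 for C1qc (-0.50 to -0.36). The median over all 6882 genes of that class with at least 20 UMIs was -0.02. After thinning to 1000 UMIs C1qa was found in 92.3% of control and 94.2% of fibrosis cells, a share too near its ceiling to follow the level. The 8 markers that define the class, of which all were detected in both libraries, moved with C1q, from 5743 CPM in control to 4164 CPM in fibrosis cells, and their part in the lower C1q level was not tested. Despite the lower level per class UMI, the C1qa UMIs of all kept cells came to 137 CPM for control and 217 CPM for fibrosis, beside the larger number of interstitial macrophage-like cells.

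Within the class, C1q was spread over most cells. The 3 subunits together had a median of 190 UMIs per 10000 in control cells (quartiles 147 and 227) and 138 in fibrosis cells (quartiles 101 and 178), at median depths of 3283 and 3315.5 UMIs. Of the control cells 9 of 143 held no C1q UMI, and of the fibrosis cells 4 of 276 held none. After each cell was thinned to 1000 UMIs, 89.5% (83.3 to 94.0%) of control cells and 86.2% (81.6 to 90.1%) of fibrosis cells held all 3 subunits. The B cell-like class, which should lack C1q, had C1qa UMIs in 1.53% of control cells and 3.80% of fibrosis cells, at median depths of 1847.5 and 2550 UMIs. Fibrosis cells that were rich in Mmp12, a macrophage elastase, held less C1q. The 34 cells with at least 10 Mmp12 UMIs per 10000 had 2588 CPM of C1qa (2393 to 2795), and the 242 cells below had 5317 CPM (5165 to 5473). This division was chosen after the values had been seen, 20 of the cells lay near the boundary, and only 2 control cells reached it.

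The proportions of the 3 subunits were nearly the same in both libraries in interstitial macrophage-like cells. C1qa made up 39.9% and 39.0% of the C1q UMIs, C1qb 32.1% and 32.8%, and C1qc 28.0% and 28.2% in the control and fibrosis library. In classical monocyte-like cells, where the summed C1q level was 40.8 and 96.0 CPM, C1qb made up 50.4% (44.0 to 56.8%) and 42.9% (35.1 to 50.9%). In type 2 dendritic cell-like cells C1qb made up 48.1% (42.6 to 53.7%) and 41.7% (38.2 to 45.3%). All 4 of these intervals lie above the interstitial macrophage-like values of their own library. So did those of nonclassical monocyte-like cells, at 54.2% (32.8 to 74.4%) and 47.4% (37.0 to 57.9%). In alveolar macrophage-like cells C1qb made up 33.6% (25.7 to 42.1%) in the control and 40.7% (35.0 to 46.6%) in the fibrosis library, of which only the second interval lies above. When cells with 10 or more C1q UMIs were left out, a step added after the values were seen, C1qb in the type 2 dendritic cell-like class came to 64.8% (52.5 to 75.8%) and 48.1% (38.3 to 58.0%). C1qc then came to 7.04% (2.33 to 15.7%) and 8.49% (3.96 to 15.5%), below its share in interstitial macrophage-like cells. The same step gave a C1qb share of 30.6% (16.3 to 48.1%) in control and 56.25% (41.2 to 70.5%) in fibrosis cells of the B cell-like class, which should lack C1q.

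**Figure D3:**
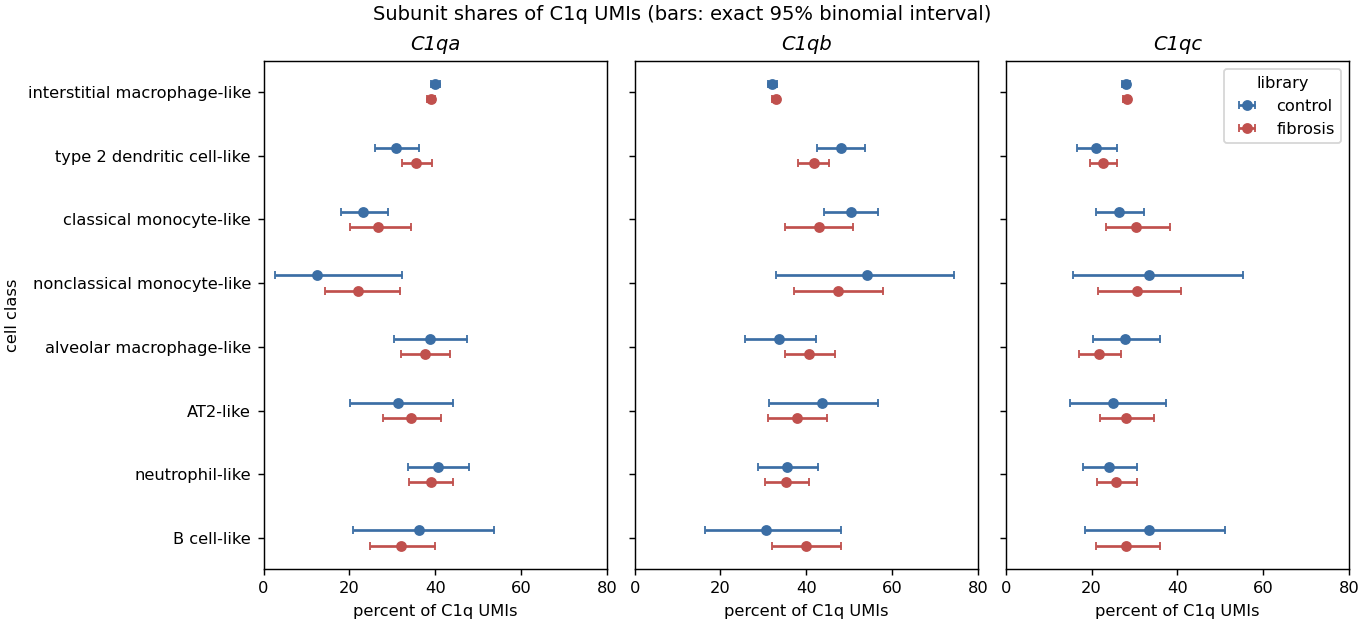
Share of C1qa, C1qb and C1qc (3 panels, percent of their summed UMIs) in 8 cell classes, as points with exact binomial 95% intervals for the control (blue) and fibrosis (red) library. Interstitial macrophage-like cells sit at 32.1% and 32.8% C1qb. The intervals of classical monocyte-like, nonclassical monocyte-like and type 2 dendritic cell-like cells lie above these in both libraries, and that of alveolar macrophage-like cells in the fibrosis library.

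Outside interstitial macrophage-like cells many C1q values rested on a few cells. In alveolar macrophage-like cells the summed C1q level was 41.9 and 58.1 CPM, and 10.4 and 36.2 CPM without the 2 control and 5 fibrosis cells that held 10 or more C1q UMIs. Neutrophil-like cells had 47.4 CPM of C1qa (37.5 to 59.2) in control and 303 CPM (255 to 358) in fibrosis cells. Of the 357 C1q UMIs in 137 neutrophil-like fibrosis cells, 349 lay in 10 cells, and without those the summed C1q level came to 19.7 CPM, beside 19.0 CPM in the control library treated in the same way. In type 1 dendritic cell-like control cells 154 of 157 C1q UMIs lay in 2 cells, and the summed level of that class was 244 CPM in the control and 65.3 CPM in the fibrosis library. Without the cells of 10 or more C1q UMIs, 2 in each library, it was 4.76 and 16.7 CPM, so the direction turned. In endothelial-like control cells 76 of 92 lay in 1 cell, and the summed level went from 124 and 75.5 CPM to 21.7 and 28.0 CPM without such cells, which also turned the direction. B cell-like fibrosis cells had 150 CPM of summed C1q, of which 105 of 153 UMIs lay in 3 cells, and 47.4 CPM without those, beside 19.6 CPM in the control library. The C1qa log2 ratio of B cell-like cells was 2.72, or 1.32 with classes from clusters and 0.62 for the share of cells with a UMI after thinning, which is under 2-fold. Markers of interstitial macrophages moved with C1q in these classes. Their summed level was 77.9 CPM and 331 CPM in the neutrophil-like class, with Tmem119 and Ccl12 at 0 in the control library. It was 82.5 CPM and 23.6 CPM in the type 1 dendritic cell-like class, with Tmem119 and Folr2 at 0 in both libraries and Ccl12 also at 0 in the control library. It was 27.2 CPM and 52.8 CPM in the B cell-like class, with Tmem119 at 0 in both libraries and Folr2 and Ccl12 at 0 in the control library. It was 258 CPM and 114 CPM in the endothelial-like class, with Folr2 at 0 in both libraries and Ccl12 at 0 in the control library. Markers of alveolar macrophages, summed in the same way, also rose with C1q in neutrophil-like cells (65.1 to 336 CPM) and B cell-like cells (28.3 to 51.8 CPM). They rose against the lower C1q in type 1 dendritic cell-like cells (66.9 to 108 CPM) and endothelial-like cells (41.8 to 86.1 CPM). The part of the source of either marker list in the C1q values was not tested. Whether the cells rich in C1q were doublets that the score had not removed was not tested.

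A 2-fold ratio in a gene with at least 20 UMIs over both libraries was the size rule, read against all genes of the same class, whose shares past it are called the background. In neutrophil-like cells C1qa, C1qb, C1qc and Hc of 6 members were past it as higher in the fibrosis library and none as lower, against backgrounds of 28.4% and 4.03%. The C1q values there rested on the 10 fibrosis cells named above. In classical monocyte-like cells C1qa, C1qb, C1qc, C4b and Hc of 7 members were higher and none lower (4.67% and 2.66%). The C1q genes were also higher in nonclassical monocyte-like cells (3 of 5 members, backgrounds 2.96% higher and 2.89% lower) and B cell-like cells (3 of 6, 4.29% and 2.16%). Together with Hc they were higher in T cell-like cells (4 of 4, 4.33% and 1.9%) and club-like cells (4 of 5, 8.11% and 1.09%). In club-like fibrosis cells 1 cell held 42 of 78 C1q UMIs. Without cells of 10 or more C1q UMIs the summed C1q level of club-like cells was 8.40 and 14.9 CPM in the control and fibrosis library. The same step gave 26.8 and 57.3 CPM in classical monocyte-like, 23.6 and 65.7 CPM in nonclassical monocyte-like and 12.7 and 33.4 CPM in T cell-like cells. In AT2-like cells C1qa and C1qc of 7 members were higher (3.13% and 1.29%), at 3.38 to 7.17 CPM of C1qa. Type 1 dendritic cell-like cells had C1qa, C1qb, C1qc and Cfp lower of 5 members (backgrounds 3.25% higher and 2.9% lower), where the C1q direction rests on the 2 control cells named above, and endothelial-like cells had Hc higher and C1qa lower of 5 (5.75% and 6.43%). No member passed in interstitial macrophage-like cells (8 tested, 5.99% and 3.59%), type 2 dendritic cell-like cells (5 tested, 5.14% and 2.84%) or NK cell-like cells (1 tested, 3.83% and 3.38%). Over the 14 classes with at least 50 cells in each library, 30 of 75 member and class pairs were at least 2-fold higher in the fibrosis library and 5 were at least 2-fold lower. The backgrounds of those classes ran from 2.96% to 28.4% higher and from 1.09% to 6.43% lower. The 3 C1q genes share their neighbours and their cells, and most of the member and class pairs past 2-fold were far below the level of the leading class.

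**Figure D4:**
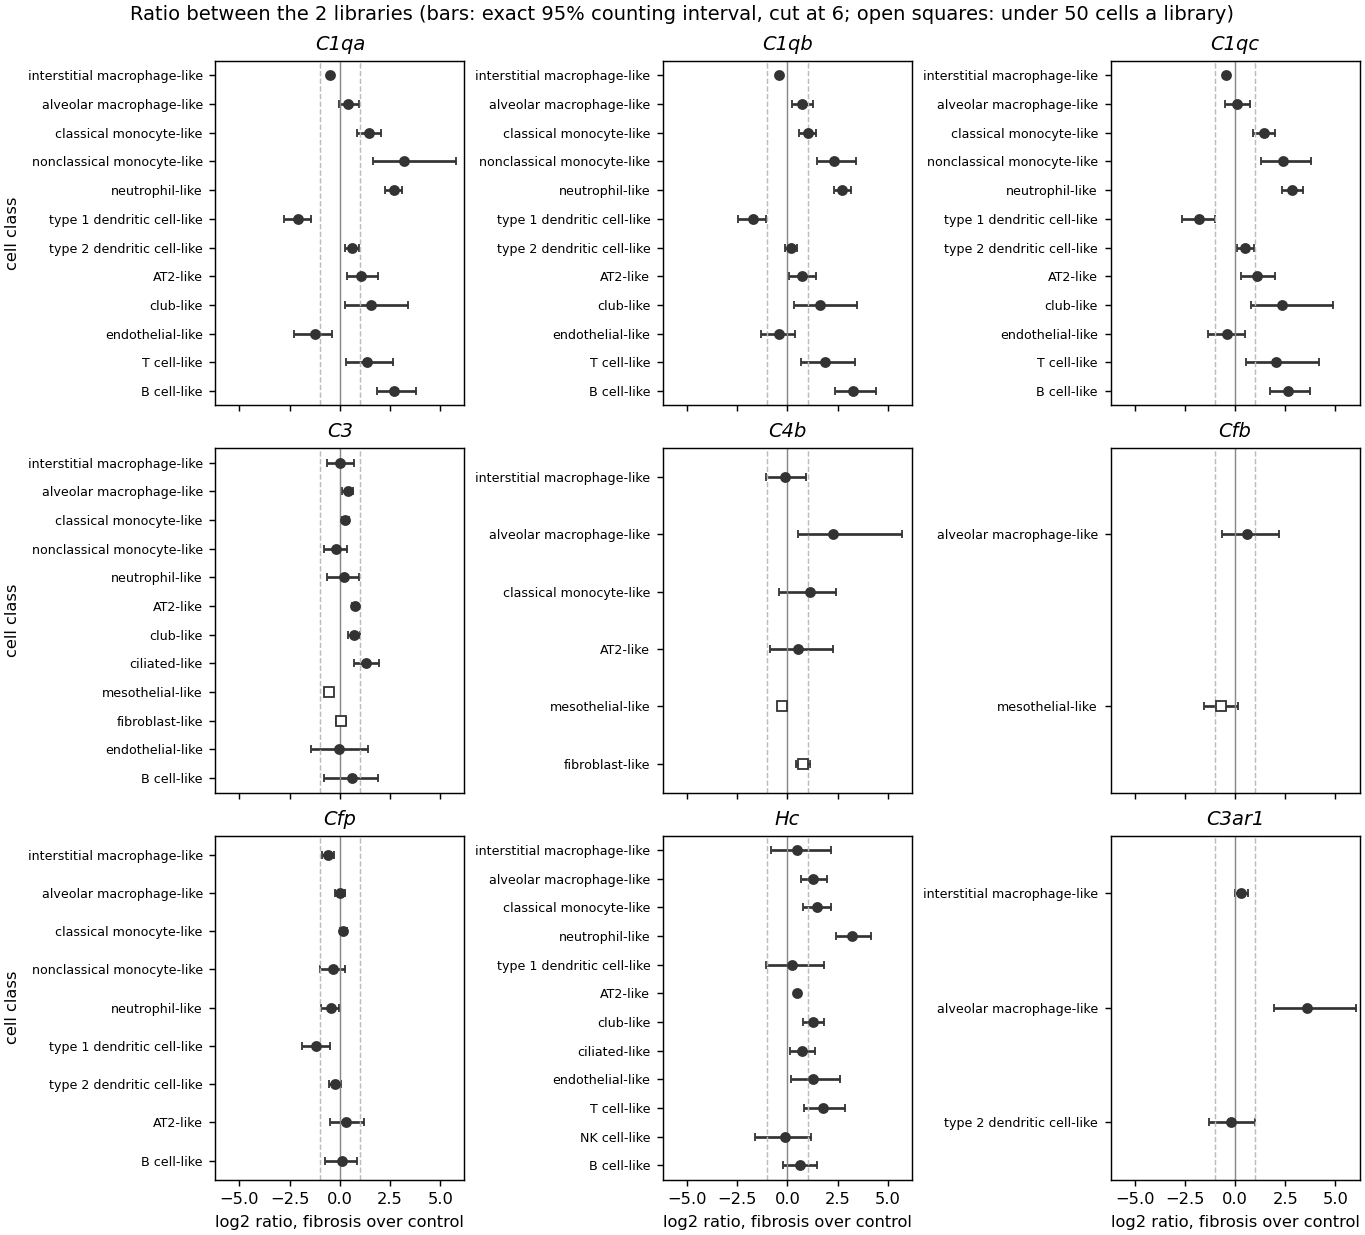
Log2 ratio of fibrosis to control (horizontal axis) for each of the 9 genes in each class with at least 20 UMIs, with exact 95% counting intervals; dashed lines mark 2-fold and open squares mark classes of under 50 cells in a library. In interstitial macrophage-like cells the C1q points lie at -0.48, -0.41 and -0.43, and the C3ar1 point of alveolar macrophage-like cells lies at 3.58.

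C3, the component on which all pathways converge, was highest in mesothelial-like cells, the lining of the lung surface. It is a gene of 41 exons at chr17:57203970-57228136. The 29 control cells held 1613 C3 UMIs (7390 CPM, 7034 to 7760) and the 30 fibrosis cells 1332 (5051 CPM, 4783 to 5329), for a log2 ratio of -0.55 (-0.65 to -0.44). Those few cells carried 37.9% and 29.1% of all C3 UMIs of their library. Fibroblast-like cells followed, with 1507 CPM (1326 to 1705, 40 cells) and 1570 CPM (1406 to 1747, 42 cells), which overlap. The 7 mesothelial markers were all detected in both libraries, at 9768 and 8573 CPM in sum, and their part in the lower C3 level was not tested.

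Epithelial C3 was higher in the fibrosis library. In AT2-like cells it measured 70.1 CPM (63.5 to 77.1) and 118 CPM (112 to 126), a log2 ratio of 0.76 (0.60 to 0.92), and the class's share of all C3 UMIs was 9.76% and 25.3% beside its larger number of cells. Club-like cells, the secretory cells of the airway, had 93.1 CPM (78.5 to 110) and 151 CPM (136 to 167), a log2 ratio of 0.69. Ciliated-like cells had 38.9 CPM (25.9 to 56.3) and 96.5 CPM (78.6 to 117), a log2 ratio of 1.29 (0.69 to 1.97), or 0.45 for the share of cells with a UMI after thinning. That made C3 1 of 2 testable members past the size rule there, where 3.95% of all genes were higher and 2.51% lower by the same rule. In B cell-like cells C3 measured 6.54 and 9.78 CPM. The AT2 values differed further with Lcn2, a secreted protein that binds bacterial iron carriers. In the fibrosis library the 911 AT2-like cells with at least 10 Lcn2 UMIs per 10000 had 144 CPM of C3 and the 701 cells below had 77.8 CPM. In the control library the same division gave 84.5 CPM (70.6 to 100) in 224 cells and 65.0 CPM (57.7 to 73.0) in 749 cells, whose intervals overlap. The boundary was chosen after the values had been seen, and 753 fibrosis and 425 control cells lay near it.

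Myeloid C3 was nearer between the libraries. Classical monocyte-like cells had 135 CPM (126 to 144) and 160 CPM (142 to 181), and with 1129 and 384 cells they held 19.4% and 5.89% of all C3 UMIs. Alveolar macrophage-like cells had 52.6 CPM (45.0 to 61.0) and 69.1 CPM (62.0 to 76.8). Interstitial macrophage-like cells, the main C1q class, had 55.3 and 56.2 CPM of C3. Nonclassical monocyte-like cells had 74.8 and 65.1 CPM, with overlapping intervals.

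C4b encodes C4, the component cut by the C1 complex, and lies at chr17:34728380-34743882. Its UMIs were mostly mesenchymal and mesothelial. Mesothelial-like cells had 1727 CPM (1557 to 1911) and 1448 CPM (1307 to 1601), and fibroblast-like cells had 615 CPM (501 to 746) and 1043 CPM (910 to 1190), a log2 ratio of 0.76 (0.42 to 1.12). The 2 classes together held most C4b UMIs, 63.9% and 17.3% in the control library and 50.6% and 29.4% in the fibrosis library. The 9 fibroblast markers summed to 20545 and 26269 CPM in the fibroblast-like class, so they were also higher in the fibrosis library, and their part in the C4b level was not tested. The interval of the C4b ratio in fibroblast-like cells lies above that of C3, whose log2 ratio there was 0.06 (-0.18 to 0.30). Interstitial macrophage-like cells had 26.7 and 25 CPM of C4b from 14 and 28 UMIs, and alveolar macrophage-like cells had 2 and 18 UMIs.

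The alternative pathway genes were divided between unlike cells. Cfb, which encodes factor B and lies at chr17:34856374-34862518, gave 76 and 58 UMIs in all kept cells. Mesothelial-like cells had 142 CPM (96.5 to 202, 31 UMIs) and 87.2 CPM (55.3 to 131, 23 UMIs), whose intervals overlap. Fibroblast-like cells had 7 and 4 UMIs, alveolar macrophage-like cells 7 and 17, and classical monocyte-like cells 14 and 1. The protein-coding gene Gm20547 overlaps Cfb on the same strand, which may have changed how many reads were counted for Cfb, and Cfb is uncertain for that reason.

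Cfp, the gene of properdin, which stabilises the C3-cutting enzyme, was a myeloid transcript. It lies at chrX:20925454-20931555. Type 2 dendritic cell-like cells had 310 CPM (264 to 361) and 259 CPM (228 to 294). Classical monocyte-like cells had 215 CPM (203 to 227) and 243 CPM (220 to 267), and their share of all Cfp UMIs was 46.8% and 23.8%, beside their smaller number. In interstitial macrophage-like cells Cfp was 273 CPM (230 to 321) and 181 CPM (157 to 208), a log2 ratio of -0.59 (-0.90 to -0.27), whose interval overlaps those of the C1q genes there. Neutrophil-like cells had 167 CPM (148 to 188) and 120 CPM (90.3 to 156), a log2 ratio of -0.47, or -0.97 when scaled by the median ratio of all genes in that class, which was 0.51. Alveolar macrophage-like cells had nearly equal values, 68.1 CPM (59.5 to 77.7) and 67.5 CPM (60.5 to 75.2), and B cell-like cells had 22.3 and 23.5 CPM.

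Hc, the mouse gene of C5, the start of the membrane attack complex, was a transcript of AT2-like cells. It lies at chr2:34983331-35061438, and an antisense gene, Gm13449, overlaps it on the other strand. AT2-like cells had 1126 CPM (1099 to 1153) and 1570 CPM (1545 to 1595), a log2 ratio of 0.48 (0.44 to 0.52), and held 94.2% and 91.5% of all Hc UMIs. After thinning to 1000 UMIs, 63.3% of control and 72.3% of fibrosis AT2-like cells held an Hc UMI, beside 1.42% and 2.99% of B cell-like cells. Hc differed less with Lcn2 than C3 did in fibrosis cells, at 1603 CPM (1572 to 1636) at or above and 1516 CPM (1476 to 1556) below the boundary. These intervals do not overlap. The 8 markers that define the AT2-like class were all detected in it, at 229029 and 204447 CPM in sum. That follows from the gate and is no check of the class name.

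Hc outside AT2-like cells was low and was mostly higher in the fibrosis library. AT1-like cells, the flat alveolar epithelium, had 192 CPM (40 cells) and 457 CPM (60 cells), where the AT2 markers summed to 30743 and 43253 CPM. Club-like cells had 24.6 and 59.6 CPM beside AT2 markers of 7467 and 6743 CPM, and ciliated-like cells 43.1 and 71.7 CPM beside 3705 and 6768 CPM. Neutrophil-like cells had 10.3 and 98.1 CPM beside 2345 and 3932 CPM, and alveolar macrophage-like cells 8.25 and 20.2 CPM beside 1436 and 1954 CPM. B cell-like cells, which should lack the gene, held 15.3 and 23.5 CPM of Hc. The part of free AT2 RNA in these values was not tested.

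C3ar1, the receptor for the fragment C3a that draws and activates leukocytes, was highest in interstitial macrophage-like cells, as was C1q. There it measured 187 CPM (152 to 228, 98 UMIs) and 232 CPM (205 to 262, 260 UMIs), a log2 ratio of 0.31 (-0.03 to 0.66), and the class held 53.0% and 52.2% of all C3ar1 UMIs. Its interval includes 0, whereas those of the C1q genes lie below it. The second class was type 2 dendritic cell-like, with 22.5 and 19.9 CPM from 12 and 19 UMIs. Endothelial-like cells had 14 C3ar1 UMIs in the control library, and the fibrosis library had 1 there.

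In alveolar macrophage-like cells C3ar1 was at least 2-fold higher in the fibrosis library. They held 2 UMIs in 635 control cells (0.61 CPM, 0.07 to 2.21) and 45 UMIs in 846 fibrosis cells (9.02 CPM, 6.58 to 12.1), a log2 ratio of 3.58 with a counting interval of 1.95 to 6.97, or 2.49 when the class was taken from clusters. In that class C4b, Hc and C3ar1 of 9 members passed the size rule in the higher direction, where 3.23% of all genes did, and none in the lower direction, where 1.96% did. B cell-like cells had no C3ar1 UMI in the control library, which allows up to 1.63 CPM at 3 counts, and 2.93 CPM (0.60 to 8.57) in the fibrosis library. Within the fibrosis library the C3ar1 UMIs lay with Mmp12. The 135 alveolar macrophage-like cells with at least 10 Mmp12 UMIs per 10000 had 33.1 CPM (22.5 to 47.0), and the 711 cells below had 3.45 CPM (1.89 to 5.80). C1qa followed the same division, at 64.1 and 12.1 CPM, whereas C3 (74.8 and 67.9 CPM) and Cfp (54.5 and 70.6 CPM) had overlapping intervals. Of the 290 C1q UMIs of this class in the fibrosis library 111 lay in 5 cells, and the division was not repeated without them. Near the boundary lay 89 of the alveolar macrophage-like fibrosis cells, and it was chosen after the values had been seen.

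**Figure D5:**
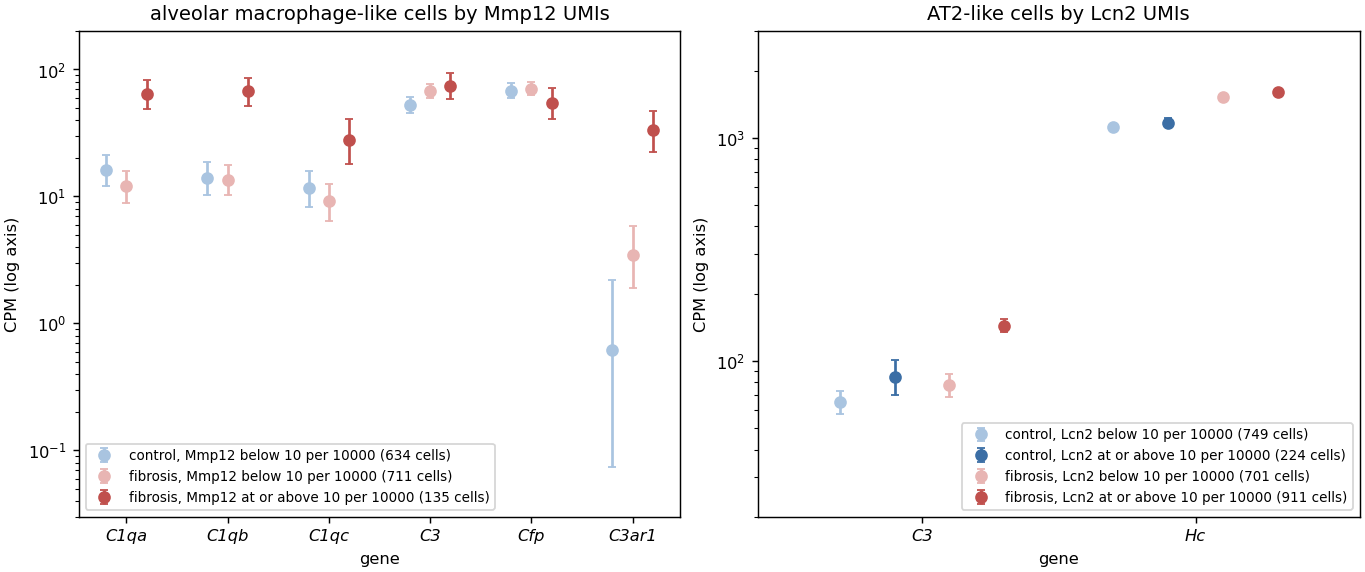
Level (CPM, log axis, with exact Poisson 95% intervals) of complement genes in alveolar macrophage-like cells divided by Mmp12 UMIs (left) and in AT2-like cells divided by Lcn2 UMIs (right); the single control alveolar macrophage-like cell above the boundary is left out. Among alveolar macrophage-like fibrosis cells C3ar1 was 33.1 CPM with Mmp12 and 3.45 CPM below, and AT2-like C3 was highest, 144 CPM, in fibrosis cells with Lcn2.

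The genes with the most similar pattern were named by Pearson's r of log2(CPM + 1) over 28 points, the 14 classes in both libraries, among 11094 genes. The points of a library share its free RNA and the points of a class share its cells, so r is a description. For the 3 C1q genes together these were Fcrls (0.91), an Fc receptor-like gene, Folr2 (0.87) and Mgl2 (0.85). Folr2 is a marker of the interstitial macrophage-like class, and Mgl2 is a marker of the type 2 dendritic cell-like class. For C3ar1 they were the chemokine gene Ccl8 (0.85), H2-M2 (0.84) and the marker Tmem119 (0.83). For C3 they were Tnfsf13os (0.91), Mgst1 (0.90) and Idh1 (0.86). Mesothelial-like and fibroblast-like cells, where C3 was highest, are not among the 14 classes. The r values of C3 therefore describe only classes with lower C3.

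Of 45 further complement genes listed by role, 44 were in the tables and 29 had at least 20 UMIs in all kept cells of both libraries. Gene and class pairs were counted where the gene had at least 20 UMIs in a compared class. Over the classes, 15 of 121 gene and class pairs were at least 2-fold higher in the fibrosis library and 5 were at least 2-fold lower, where the shares over all genes ran by class from 2.96% to 28.4% higher and from 1.09% to 6.43% lower. In the classical and lectin arm C1s1, the protease partner of C1q, had its highest level in mesothelial-like cells of the control library (586 CPM) and fibroblast-like cells of the fibrosis library (620 CPM), unlike C1q itself. Fcna, the gene of a ficolin that binds sugars on microbes, fell from 83.9 CPM (44 UMIs) to 8.04 CPM (9 UMIs) in interstitial macrophage-like cells, a log2 ratio of -3.32 (-4.60 to -2.33). Its relative Fcnb fell from 20.7 to 5.37 CPM in classical monocyte-like cells. C1ra, the other protease partner of C1q, had 0.68 and 2.46 CPM in AT2-like cells from 4 and 24 UMIs, a log2 ratio of 1.72 (0.32 to 3.85).

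In the terminal arm C6, a subunit of the membrane attack complex, was highest in AT2-like cells as was Hc, with 86.3 CPM (78.9 to 94.1) and 114 CPM (107 to 121). Among the regulators Clu, the gene of clusterin, which blocks insertion of the attack complex, rose in club-like cells from 88.6 to 412 CPM, a log2 ratio of 2.21 (1.96 to 2.48). In ciliated-like cells Clu rose from 48.7 to 285 CPM, a log2 ratio of 2.53, and in endothelial-like cells it fell from 492 to 223 CPM, a log2 ratio of -1.14. Cd55, which speeds the decay of the C3-cutting enzymes, was highest in B cell-like cells of the control library (289 CPM) and ciliated-like cells of the fibrosis library (293 CPM). In neutrophil-like cells Cd55 had 17 and 11 UMIs (10.3 and 24.0 CPM), a log2 ratio of 1.24 whose interval reaches -0.03. Cfi, the gene of factor I, which cuts C3b and C4b, had 6 and 25 UMIs in AT2-like cells, a log2 ratio of 1.25 (0.02 to 2.91).

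Among the receptors C5ar1, the receptor for the C5 fragment C5a, fell in neutrophil-like cells from 419 to 192 CPM, a log2 ratio of -1.12 (-1.46 to -0.81), and rose in classical monocyte-like cells from 21.4 to 45.3 CPM, a log2 ratio of 1.09. Itgax, a subunit of complement receptor 4 and a usual marker of alveolar macrophages and dendritic cells, rose in interstitial macrophage-like cells from 34.3 to 191 CPM, a log2 ratio of 2.44 (1.78 to 3.26). In the same class C1q was lower and the markers of the class were lower, as given above. In neutrophil-like cells Itgax had 28.0 and 67.6 CPM and Lrp1, an uptake receptor, had 29.8 and 98.1 CPM, where 28.4% of all genes were at least 2-fold higher. Cd93, a receptor tied to uptake of debris, rose in alveolar macrophage-like cells from 26.0 to 54.7 CPM. Cfd, the gene of factor D of the alternative pathway, had no UMI in either library.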

How the data were processed

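Both tables hold raw UMI counts per gene and cell, deposited by the authors as whole numbers without normalization; Cell Ranger 1.3, bcl2fastq and the mm10 build are named in the submitters' processing notes, and the annotation and strand setting are not given in the sources used here. The deposited cells had at least 1460 and 1915 UMIs. Cells with under 200 genes (1 and 0) or over 10% mitochondrial UMIs (254 and 228) were left out. Doublets were scored against simulated cell pairs and an equal rule of 0.8% per 1000 cells removed 515 and 386. A marker counted as held where its UMIs exceeded a Poisson expectation from the library's mean (tail 0.05). A cell joined the class of whose markers it held the greatest share, with at least 2 held. Both thresholds were set after the cells had been seen. Cells holding markers of another lineage at 50% of the first or more (153 and 259), tied cells (47 and 50) and ungated cells (877 and 695) entered no class. Of 153 markers 3 were not in the tables.

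UMIs were summed per class and library with exact Poisson intervals, binomial (Clopper-Pearson) intervals for shares and an exact interval for ratios, with 0.5 UMI added to each sum for the log2 ratio (python 3.11.15, scipy 1.17.1). Intervals cover counting error only, and a count of 0 allows up to 3 counts. Ratios were computed for all genes of a class. Scripts were tested on simulated data. The members, markers and lists were chosen with earlier results of these data known. All 9 members were named. Of the other complement genes, up to 10 genes with the most UMIs in a class where they were past 2-fold were named, with the leading class of the main gene of each role, and for C1q, C3 and C3ar1 the 3 most similar genes with at least 200 UMIs. Alternatives covered doublets, mitochondrial share, clusters in place of gates, 1 marker more, a common UMI floor of 1915, scaling, free RNA, shared barcodes and thinning.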

Additional observations from a re-analysis of the deposited data

How the results depend on the processing

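Among the ratios recomputed under the listed alternatives none past 2-fold changed its sign. For the members these were C3ar1 and C4b in alveolar macrophage-like, C3 in ciliated-like, Hc in club-like and C1q in B cell-like cells. The other member and class pairs past 2-fold were not recomputed in this way. C1q in type 1 dendritic cell-like and endothelial-like cells was among those left out. Its direction turned there without cells of 10 or more C1q UMIs (4.76 and 16.7 CPM, 21.7 and 28.0 CPM). Of the main comparisons 91 alternative values stayed near the main value and 18 moved, and for single classes 136 stayed and 14 moved. Where each cell was thinned to 1000 UMIs and the share of cells with a UMI was compared, the log2 ratio in interstitial macrophage-like cells became 0.029 for C1qa, 0.023 for C1qb and 0.00092 for C1qc, since over 90% of these cells held each gene in both libraries. With the same step it became 2.37 for C4b in that class, 1.05 for C3 in AT2-like cells and 0.19 for Hc in AT2-like cells. With 1 marker more, C1qb in interstitial macrophage-like cells became -0.48 and its share in type 2 dendritic cell-like fibrosis cells 36.7%, an alternative for the shares that was added after the values were seen. Without cells of 10 or more C1q UMIs the C1qb share in type 2 dendritic cell-like cells was 64.8% and 48.1%. C1qa in B cell-like cells had a log2 ratio of 2.72, 1.32 with classes from clusters, 1.41 with 1 marker more and 0.62 after thinning. Hc in club-like cells had 1.26, and 1.95 with the B cell level subtracted or 0.27 after thinning. C4b in interstitial macrophage-like cells kept its sign in 7 of 9 alternatives and C3 in fibroblast-like cells in 5 of 8. Without the filter on low counts the genes past 2-fold numbered 1771 higher and 1844 lower in interstitial macrophage-like cells (412 and 247 with it), 1392 and 1124 in AT2-like cells (355 and 146), 1238 and 1394 in alveolar macrophage-like cells (328 and 199), and 2364 and 668 in classical monocyte-like cells (435 and 248). Depth limits Cfb, C4b outside mesothelial-like and fibroblast-like cells and C3ar1 outside macrophages to small counts. No paired analysis was possible because each group has 1 mouse, and the number that both labels carry does not tie the 2 animals together.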

Other observations

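Cells that no class took held part of the C1q signal. The 877 ungated control cells held 5.28% of C1qa UMIs and the 695 ungated fibrosis cells held 15.5%, at 69.7 CPM (61.1 to 79.2) and 446 CPM (421 to 472). In them C1qb made up 47.4% (44.0 to 50.7%) and 39.6% (37.9 to 41.3%) of C1q UMIs, above its share of 32.1% and 32.8% in interstitial macrophage-like cells. They also held 12.4% and 20.5% of C3ar1 UMIs. Markers of interstitial macrophages summed to 239 and 266 CPM in them, with Ccl12 at 0 in the control library. Markers of alveolar macrophages moved with C1q there, from 101 to 575 CPM, with all 8 detected in both libraries, and their part was not tested. Basophil-like and mast cell-like cells, 16 in the control library, held 5 C3ar1 UMIs.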
